A study of Mus musculus with 20 samples.

Results

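The laminin chains Lama1, Lama2, Lama3, Lama4, Lama5, Lamb1, Lamb2 and Lamc1, the heparan sulfate proteoglycan perlecan (Hspg2) and nidogen (Nid1) were followed in cultured mouse forebrain slices. They were 10 of the 19722 gene identifiers measured at 4 h and of the 51912 measured at 24 h, and all 10 passed the filters on low values, which left 15181 and 16013 genes to test. The list was drawn up because Lama5 and Hspg2 stood near the top of the ranking of KO-labelled against heterozygous slices at 24 h, so the list was chosen by values of that contrast, which is described below for the members and not tested. RNA-seq was made from 20 libraries of forebrain slices cut from pups at postnatal day 4 and given 5% horse serum, so every group, controls included, had been exposed to serum. At 4 h there were 3 wild-type (WT) and 3 Tnfaip6 knockout (KO) libraries, with no sex given. At 24 h there were 3 heterozygous (Het) female, 4 KO female, 3 Het male and 4 KO male samples. The secreted hyaluronan-binding protein TSG-6 is the product of Tnfaip6. Controls at 24 h are called WT in the treatment field but heterozygous in titles and genotype fields, and the titles were followed. The serum medium is HBSS in the series text and DMEM in the sample fields. Whether libraries of 1 group came from different pups is not stated, so the p-values reflect spread between libraries that may be technical.

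Laminins are cross-shaped trimers of an alpha, a beta and a gamma chain that polymerise on cell surfaces and start the basement membrane, the thin sheet of matrix beneath endothelium and around the brain. Nidogen links the laminin network to the collagen IV network, and perlecan adds heparan sulfate chains that hold growth factors. In brain these sheets lie around blood vessels and beneath the pia, where endothelium, mural cells, meningeal fibroblasts and astrocyte endfeet meet, and cells hold on to them through integrins and dystroglycan.

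Library totals were 11411532 to 15030171 reads at 4 h and 8482933 to 18051300 reads at 24 h. Tnfaip6 itself stood at 81.4 ± 13.0 normalised reads in WT and 65.7 ± 22.3 in KO-labelled libraries at 4 h (SD, n = 3 each). At 24 h it was at 4.60 ± 1.08 CPM in Het and 6.51 ± 1.52 in KO-labelled females, and at 5.16 ± 1.24 in Het and 6.70 ± 0.930 in KO-labelled males (SD, n = 3 Het and 4 KO-labelled per sex). CPM are counts relative to a library total scaled by edgeR's TMM factor. Gene totals cannot show which exons the reads came from, so these libraries are called KO-labelled throughout. Markers of neurons, astrocytes, endothelium, mural cells and meningeal fibroblasts were read in both tables. Some libraries stood apart. KO-labelled female 1, female 3 and male 3 held 1472, 2706 and 456 CPM of Ttr, the transthyretin of choroid plexus epithelium, and KO-labelled female 2 had 0 reads of Xist but 826 of the Y-linked Ddx3y. Het male 1 had 656 reads of Ddx3y and also 107 of Xist, as against at most 5 in the other libraries labelled male. At 4 h, Xist was read in WT 1 and KO-labelled 1, with at most 3 reads in the other libraries. Values without these libraries are given below for the members the results turn on.

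The stretch before the annotated start of each gene was looked up in the RefSeq table of GRCm38.p6, which held 6 of the 10 members. A window of 190 bases, from 250 to 61 bases before that start, was read on the gene's strand. Of the 6, only Lama5 has the same start in GENCODE. The windows of Hspg2, Nid1 and Lamb1 lie before the GENCODE starts at 137468769, 13437551 and 31265234, but end nearer to them than 61 bases. The Lama2 window (27617003 to 27617192, minus strand) lies inside the GENCODE gene, which reaches 27619758. The Lamb2 window (108479612 to 108479801) crosses the GENCODE start at 108479736. Neither window held a motif match. Lama5 and Hspg2 are shown because they gave the list its place, and Nid1 because it had the smallest p of the members at 4 h. Capitals mark matches to 6 motifs that were searched on both strands.
Lama5, chr2:180225920-180226109, minus strand: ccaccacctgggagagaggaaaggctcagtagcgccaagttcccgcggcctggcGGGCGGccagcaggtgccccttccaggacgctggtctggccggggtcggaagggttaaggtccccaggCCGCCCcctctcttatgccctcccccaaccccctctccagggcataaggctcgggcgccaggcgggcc
Hspg2, chr4:137468553-137468742, plus strand: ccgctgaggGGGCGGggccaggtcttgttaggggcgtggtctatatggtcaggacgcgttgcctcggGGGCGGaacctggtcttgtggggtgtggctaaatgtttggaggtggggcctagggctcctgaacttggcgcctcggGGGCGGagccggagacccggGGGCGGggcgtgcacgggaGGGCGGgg
Nid1, chr13:13437352-13437541, plus strand: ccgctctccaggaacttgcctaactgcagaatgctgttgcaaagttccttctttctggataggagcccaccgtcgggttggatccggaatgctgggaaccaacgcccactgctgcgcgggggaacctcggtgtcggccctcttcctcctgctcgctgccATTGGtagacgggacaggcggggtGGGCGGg
All 3 windows were rich in G and C, at 71.1%, 70.5% and 62.6%, against a median of 51.6% over the 32851 windows of that length. The GC box GGGCGG, the motif of Sp-type factors, matched at 2 places in the Lama5 window, at 5 in that of Hspg2 and at 1 in that of Nid1. It was in 4 of the 6 member windows and in 22.8% of all windows. The CCAAT box matched in Nid1 and Lamb1, and in 26.7% of all windows. The AP-1 motif TGANTCA, the cAMP response element TGACGTCA, the E-box CACGTG and the TATA box TATAAA matched in 0 of the 6 member windows, and in 5.22%, 0.700%, 4.03% and 8.73% of all windows. These matches describe letters and not bound sites.

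In the GRCm38 annotation, Lama5 lies on chromosome 2 from 180176373 to 180225859 on the minus strand, 128.1 Mb from Tnfaip6 on the same chromosome. Hspg2 lies on chromosome 4 from 137468769 to 137570630 and Nid1 on chromosome 13 from 13437551 to 13512269, both on the plus strand. Lamc1 lies on chromosome 1 from 153218922 to 153332786 on the minus strand, and Lama4 on chromosome 10 from 38965515 to 39110188 on the plus strand. Lama2 overlaps 6 other annotated genes, Lama3 overlaps 4, Lamc1 overlaps 2, and Lama5, Hspg2 and Nid1 overlap 1 each. The strand setting of the counting is not given in the sources used here, so reads of members with an antisense neighbour, Lama2, Lama3 and Nid1 among them, cannot be told from that neighbour's reads.

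Levels per exon length put the gamma chain, nidogen and the beta chains above the alpha chains. The length used was that of all annotated exons of a gene merged, 6082 bases for Lamb2, 12068 for Lama4 and 16338 for Lama2. Merged exons can be longer than any 1 transcript, which lowers the RPKM, so the order depends on this choice. Other lengths were not tried. Lamc1, the gamma chain of most laminins, had the highest mean level at 4 h, 11.7 RPKM, reads per kilobase of exon scaled by the library total (SD 1.41, n = 6 libraries), followed by Nid1 at 10.4, Lamb1 at 7.45 and Lamb2 at 5.24. The alpha chain Lama4, typical of vessel walls, stood at 3.13, Hspg2 at 2.02 and Lama5 at 1.63. Lama2 (0.831), Lama1 (0.729) and Lama3 (0.269) came last. Library ranges of neighbours in this order overlapped except between Lamb2 and Lama4, between Lama5 and Lama2, and between Lama1 and Lama3. At 24 h the order was the same but for Lama1 (0.931) and Lama2 (0.899), which changed places and whose ranges overlapped. Lamc1 led there at 16.6 (SD 1.61, n = 14 libraries), ahead of Nid1 at 12.8, Lamb1 at 9.41, Lamb2 at 6.11, Lama4 at 4.32, Hspg2 at 3.78 and Lama5 at 2.41, with Lama3 again lowest at 0.408. At 24 h the neighbours without overlap were Lamb1 and Lamb2, Lama5 and Lama1, and Lama2 and Lama3. The tables were scaled separately, RPKM by the plain library total at 4 h and by the TMM-scaled total at 24 h. They also differ in control genotype, so levels are not compared across time.

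**Figure D1:**
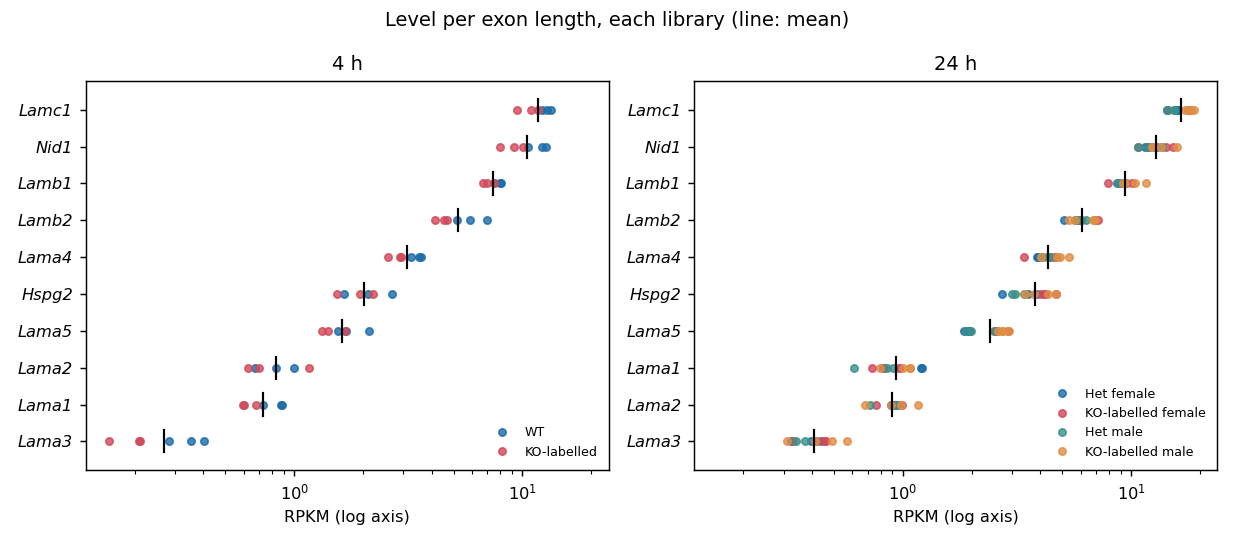
Level of each member in RPKM (horizontal log axis), with points for single libraries coloured by group and a line at the mean over all libraries of the table. Lamc1, Nid1 and the beta chains lie to the right of every alpha chain at 4 h, and Lama3 lies furthest to the left at both times.

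Summed per length, the 5 alpha chains reached an RPKM of 7.26 ± 0.658 in WT slices at 4 h, below the 13.9 ± 1.24 of Lamb1 and Lamb2 together and the 12.8 ± 0.549 of Lamc1 (SD, n = 3). Lama4 made up 47.8% ± 2.21 of the alpha sum in WT and 47.4% ± 0.914 in KO-labelled libraries, and Lama5 made up 24.5% ± 2.66 and 24.9% ± 3.35 (SD, n = 3 each). At 24 h the Lama5 share was 23.3% ± 1.52 in Het and 29.2% ± 4.02 in KO-labelled females, and 25.4% ± 2.46 in Het and 28.0% ± 2.11 in KO-labelled males (SD, n = 3 and 4 in each sex). The Lama4 share stayed between 46.8% and 50.6% over those 4 groups. The sums and shares rest on the same merged exon lengths and depend on them. These shares were not tested, since the 24 h contrast chose the members.

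The 4 h comparison asks how slices labelled knockout differ from WT slices shortly after serum. Every member had a fold change below 0 there, but none passed the test. Laminin chains of all 3 kinds and nidogen lay lower in KO-labelled slices, by 7.83% for Lamb1 to 42.3% for Lama3, whereas Lama2 differed by only 0.276%. Values are normalised reads, which are reads divided by a size factor per library. Fold changes are differences of log2(value + 1) with standard errors (SE), and adjusted p-values come from limma with Benjamini-Hochberg adjustment over all genes.

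Among the alpha chains, Lama3, the chain of epithelial laminin, differed most at 4 h. It stood at 48.6, 39.4 and 54.9 normalised reads in WT and at 29.6, 30.0 and 21.7 in KO-labelled libraries. All 3 KO-labelled libraries were below all WT libraries, and the log2 fold change was -0.79 ± 0.25 with a limma adjusted p of 0.198. Lama1, the alpha chain of early embryonic and pial laminin, was at 109, 91.6 and 109 normalised reads in WT and at 76.8, 87.3 and 75.3 in KO-labelled libraries. These groups did not overlap either, and the log2 fold change was -0.36 ± 0.16 (limma adjusted p = 0.336). Lama4 was at 545, 511 and 549 normalised reads in WT and at 466, 466 and 403 in KO-labelled libraries. Its groups were likewise apart, with a log2 fold change of -0.27 ± 0.09 (limma adjusted p = 0.226). Lama5, the alpha chain of mature vessels and many epithelia, was at 308, 229.6 and 243 normalised reads in WT and at 251, 200.3 and 209 in KO-labelled libraries. The ranges overlapped through KO-labelled 1, and the log2 fold change was -0.24 ± 0.14 (limma adjusted p = 0.467), which was -0.11 without WT 1 and -0.33 without KO-labelled 1. For Lama2, the alpha chain of muscle and glial basement membranes, KO-labelled 2 was the highest library at 251 normalised reads and KO-labelled 3 the lowest at 133, with WT libraries between 143 and 206. The groups overlapped fully, and its sign changed when single libraries were left out.

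Of the chains shared by many trimers, Lamb2 showed the larger difference at 4 h. It was at 459, 407 and 542 normalised reads in WT and at 375, 334 and 360.5 in KO-labelled libraries. No KO-labelled library reached the lowest WT library, and the log2 fold change was -0.39 ± 0.11 (limma adjusted p = 0.175). Lamb1 was at 1011, 964 and 1017 normalised reads in WT and at 976, 883 and 900.1 in KO-labelled libraries. KO-labelled 1 fell inside the WT range, and the log2 fold change was -0.12 ± 0.07 (limma adjusted p = 0.505). Lamc1 was at 1406, 1311 and 1349 normalised reads in WT and at 1191, 1289 and 1015 in KO-labelled libraries. Its groups were apart by a narrow margin, with a log2 fold change of -0.22 ± 0.09 (limma adjusted p = 0.273), which was -0.13 without KO-labelled 3.

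Nid1 had the smallest p of the members at 4 h. It was at 1121, 956 and 1073 normalised reads in WT and at 839, 925 and 722 in KO-labelled libraries. The groups did not overlap, and the log2 fold change was -0.35 ± 0.10 with a limma adjusted p of 0.168. Without KO-labelled 2, its highest KO-labelled library, the fold change was -0.43 and Nid1 passed the test at a limma adjusted p of 0.0310, in a fit that called 211 genes in place of 7. Hspg2 was at 385, 305 and 485 normalised reads in WT and at 366, 419.9 and 287 in KO-labelled libraries. These ranges overlapped, and the log2 fold change was -0.12 ± 0.16 (limma adjusted p = 0.777). Its sign turned, to 0.04 without WT 3 and to 0.03 without KO-labelled 3.

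**Figure D2:**
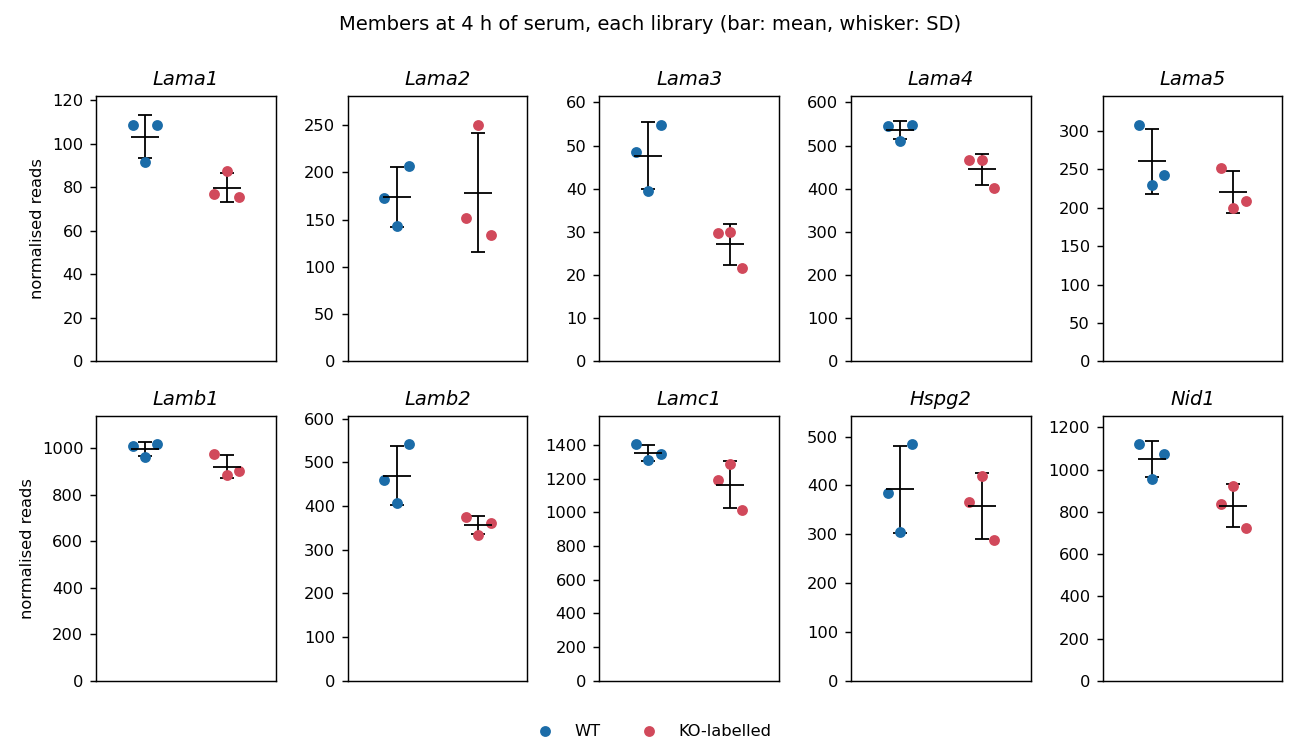
Normalised reads of each member at 4 h (vertical axes from 0), with points for single libraries, a bar at the group mean and a whisker of 1 SD. The 3 KO-labelled libraries lie below the 3 WT libraries for Lama1, Lama3, Lama4, Lamb2, Lamc1 and Nid1, and the groups overlap for Lama2, Lama5, Lamb1 and Hspg2.

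Over the list, 0 of 10 members passed the adjusted threshold of 0.05 at 4 h, as against 0.0461% of all genes tested. By unadjusted p under 0.05, 6 were lower by limma and 5 by DESeq2, against 6.65% of all genes that were lower by limma. The KO-labelled group lay below the WT group without overlap for 6 members and for 8.88% of all genes. The median log2 fold change was -0.25 over the members and 0.00 over all genes tested, with 10 of 10 members and 49.4% of all genes below 0. Since Lama2 sat at -0.00 and turned positive in edgeR and DESeq2 (0.04 in both), the count below 0 was 9 with those tools. With the replicate number as a block, 0 members passed and 38 genes passed over the whole table, with a smallest limma adjusted p of 0.127 among the members. Without the libraries with Xist reads, WT 1 and KO-labelled 1, the smallest was 0.433, and 4 members had an unadjusted p under 0.05. With single libraries left out, 3 to 6 members did, the fewest being 3 without KO-labelled 3 and 4 without WT 1, and the smallest limma adjusted p among the members was 0.273 and 0.453 in those fits.

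Markers of the cells that lie at basement membranes also had fold changes mostly below 0 at 4 h. All 14 endothelial markers had fold changes below 0, with a median log2 of -0.33, and their summed level was 4178 to 5081 normalised reads in WT and 3559.5 to 4144 in KO-labelled libraries. For mural cells, 7 of the 8 tested markers were below 0 (median -0.32), and the sums of 3019 to 3572 in WT and 2409 to 2726 in KO-labelled libraries did not overlap. All 10 tested markers of meningeal fibroblasts were below 0 (median -0.43), with sums of 3625 to 4667 in WT and 2683 to 4189 in KO-labelled libraries. The 5 ependymal markers had a median of -0.65 and the 9 astrocyte markers one of -0.11. Lower values were not limited to those cells, as 7 of 9 microglial markers (median -0.07) and 6 of 8 of the oligodendrocyte lineage (median -0.11) were below 0. Neuronal marker sums were higher instead, at 94307 to 99263 in WT and 101592 to 107600 in KO-labelled libraries. Single neuronal markers were mixed, with 4 of 11 below 0 and a median of 0.09. In limma, 0 of these markers passed the adjusted threshold. No marker was at 0 in all libraries at 4 h, and choroid plexus markers summed to only 138.5 to 226 normalised reads. In bulk slices, fewer cells of a type and less RNA per cell cannot be told apart. The part of these markers in the members' differences was not tested.

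The members' partners were read from a list of 61 genes in 5 groups, all of which passed the 4 h filter. In limma, 0 of 61 passed the adjusted threshold at 4 h. Fold changes were below 0 for 40, with a median of -0.08. By unadjusted limma p under 0.05, 9 were lower and 3 higher, against 1009 lower and 1101 higher of all 15181 genes. Other structural components of the basement membrane lay mostly below 0, 17 of 20 with a median of -0.20. Sparc, a collagen-binding matrix glycoprotein, was at 5460.1 ± 349 normalised reads in WT and 4392 ± 197 in KO-labelled libraries (SD, n = 3 each). Its log2 fold change was -0.31 ± 0.07, with an adjusted p of 0.105 in limma and 0.00619 in DESeq2 on the recovered reads. Fbln2, a fibulin that binds nidogen and perlecan, was at 395 ± 38.0 and 295 ± 12.01 normalised reads, with a log2 fold change of -0.41 ± 0.10 and an adjusted p of 0.139 in limma and 0.0459 in DESeq2. Egflam (pikachurin), a dystroglycan ligand, had a log2 fold change of -0.49 ± 0.17 (limma adjusted p = 0.229).

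Of the laminin and perlecan receptors, 10 of 12 had a 4 h fold change below 0, with a median of -0.15. Itgb1, the beta subunit shared by laminin-binding integrins, was at 2329.7 ± 59.8 normalised reads in WT and 1981 ± 104 in KO-labelled libraries, with a log2 fold change of -0.23 ± 0.07 (limma adjusted p = 0.172). Without KO-labelled 2 its limma adjusted p was 0.0497. The alpha subunits Itga1 and Itga6 had log2 fold changes of -0.39 and -0.19 (limma adjusted p = 0.321 and 0.369), which were -0.16 and -0.12 without the libraries with Xist reads. Genes of the dystroglycan complex and its sugar chain were split, with 6 of 15 below 0 and a median of 0.06. The mannosyltransferase Pomt1 had a log2 fold change of -0.18 (limma adjusted p = 0.513). Of the genes of heparan sulfate synthesis and editing, 5 of 11 were below 0, with a median of 0.02. The sulfotransferase Hs6st1 was at 1184 ± 44.4 and 1373 ± 70.4 normalised reads, with a log2 fold change of 0.21 ± 0.07 (limma adjusted p = 0.220). The sulfatase Sulf2 had a log2 fold change of 0.21 and the sulfotransferase Ndst1 of 0.09 (limma adjusted p = 0.259 and 0.611). Of the laminin chains outside the list, Lamc3 and Lamb3 had log2 fold changes of -0.49 and 0.26 (limma adjusted p = 0.343 and 0.618). Single libraries left out moved Lamc3 to -0.29 and Lamb3 to 0.17 at the least.

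The 24 h comparison asks how KO-labelled slices differ from heterozygous slices of either sex after a day in serum. Here all 10 members had an averaged fold change above 0, and Lama5 (33.3% higher) and Hspg2 (27.4% higher) led, followed by Lamc1 (15.2% higher). These values are those that drew up the list and are described only. Levels are CPM, and fold changes are edgeR's log2 values averaged over the sexes.

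Lama5 was at 21.1, 22.01 and 22.5 CPM in Het females and at 29.4, 29.2, 32.7 and 28.6 in KO-labelled females. In males it was at 22.7, 21.5 and 28.9 CPM in Het and at 33.4, 31.0, 29.7 and 31.2 in KO-labelled libraries. With these TMM-scaled values, every KO-labelled library was above every Het library within each sex. Over both sexes 7 of 8 were, the exception being KO-labelled female 4, which lay just under Het male 3. By plain library totals the males overlapped, as KO-labelled male 3 (320 of 10928563 reads) lay under Het male 3 (297 of 9925705). Fewer than 7 of 8 were then above all Het libraries. The log2 fold change was 0.46 ± 0.10 in females, 0.37 ± 0.10 in males and 0.41 ± 0.07 averaged, which put Lama5 at rank 1 of 16013 by p. Leaving out single libraries moved the average between 0.37 and 0.48, and it was 0.40 without the 3 libraries with choroid plexus reads and 0.42 without KO-labelled female 2.

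Hspg2 was at 50.5, 55.4 and 38.8 CPM in Het females and at 60.1, 57.6, 59.8 and 67.0 in KO-labelled females. In males it was at 48.7, 42.9 and 44.3 CPM in Het and at 67.3, 49.2, 61.7 and 53.7 in KO-labelled libraries. Here too each sex was split without overlap, though KO-labelled male 2 exceeded Het male 1 by a small margin. The log2 fold change was 0.34 ± 0.11 in females, 0.36 ± 0.12 in males and 0.35 ± 0.08 averaged, at rank 11. It lay between 0.28 and 0.41 with single libraries left out, and was 0.35 without the libraries with choroid plexus reads and 0.36 without KO-labelled female 2. Nid1, the other linker of the list, was at 84.0 ± 5.50 CPM in Het and 91.0 ± 13.9 in KO-labelled females, and at 83.9 ± 10.02 and 94.2 ± 11.1 in males (SD, n = 3 and 4 in each sex). Its ranges overlapped in both sexes, and the averaged log2 fold change was 0.14 ± 0.08.

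Lamc1, the gamma chain, was at 131, 133 and 119 CPM in Het females and at 150.4, 147, 119.8 and 149 in KO-labelled females. In males it was at 128, 119 and 128 CPM in Het and at 155, 142, 151 and 148 in KO-labelled libraries. The male groups were apart, whereas KO-labelled female 3 fell among the Het females. The log2 fold change was 0.15 ± 0.08 in females, 0.26 ± 0.08 in males and 0.20 ± 0.05 averaged (rank 26), 0.24 without the libraries with choroid plexus reads and 0.19 without KO-labelled female 2. The beta chains Lamb1 and Lamb2 had averaged log2 fold changes of 0.10 ± 0.06 and 0.13 ± 0.07. Lamb1 was highest in KO-labelled male 4 at 115 CPM and lowest in KO-labelled female 3 at 78.5, so the KO-labelled group spanned the Het range of 85.9 to 93.0. Lamb2 reached 43.4 and 42.4 CPM in KO-labelled females 3 and 4, above the Het females at 30.9 to 36.5, while KO-labelled females 1 and 2 lay inside or next to that range at 35.9 and 36.7. In males it was at 38.5, 35.3 and 35.8 CPM in Het and at 41.3, 32.4, 34.4 and 42.3 in KO-labelled libraries, which overlapped. The Lamb2 log2 fold change was 0.22 ± 0.10 in females and 0.05 ± 0.10 in males.

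The other alpha chains differed less at 24 h. Lama4 was at 47.5 ± 1.14 CPM in Het and 51.4 ± 7.12 in KO-labelled females, and at 51.1 ± 2.33 and 57.3 ± 6.63 in males (SD, n = 3 and 4 in each sex). The averaged log2 fold change was 0.14 ± 0.07, and its groups overlapped. Lama3, the lowest member, ran from 3.32 to 6.12 CPM over the 14 libraries, with a log2 fold change of 0.18 ± 0.15 that was 0.07 without the libraries with choroid plexus reads. Lama2 had a log2 fold change of 0.04 ± 0.11. Lama1 was at 11.6, 11.7 and 7.9 CPM in Het females and at 9.3, 8.0, 7.1 and 9.4 in KO-labelled females, and in males at 5.9, 8.2 and 8.8 in Het and at 7.6, 10.4, 9.7 and 10.4 in KO-labelled libraries. The fold change was -0.31 ± 0.17 in females and 0.32 ± 0.18 in males, which average to 0.01 ± 0.13. KO-labelled female 2, at 8.0 CPM, is the library whose sex-linked reads go against its label, and without it the female value was -0.29 ± 0.19. The difference between the sexes in that contrast was not tested.

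**Figure D3:**
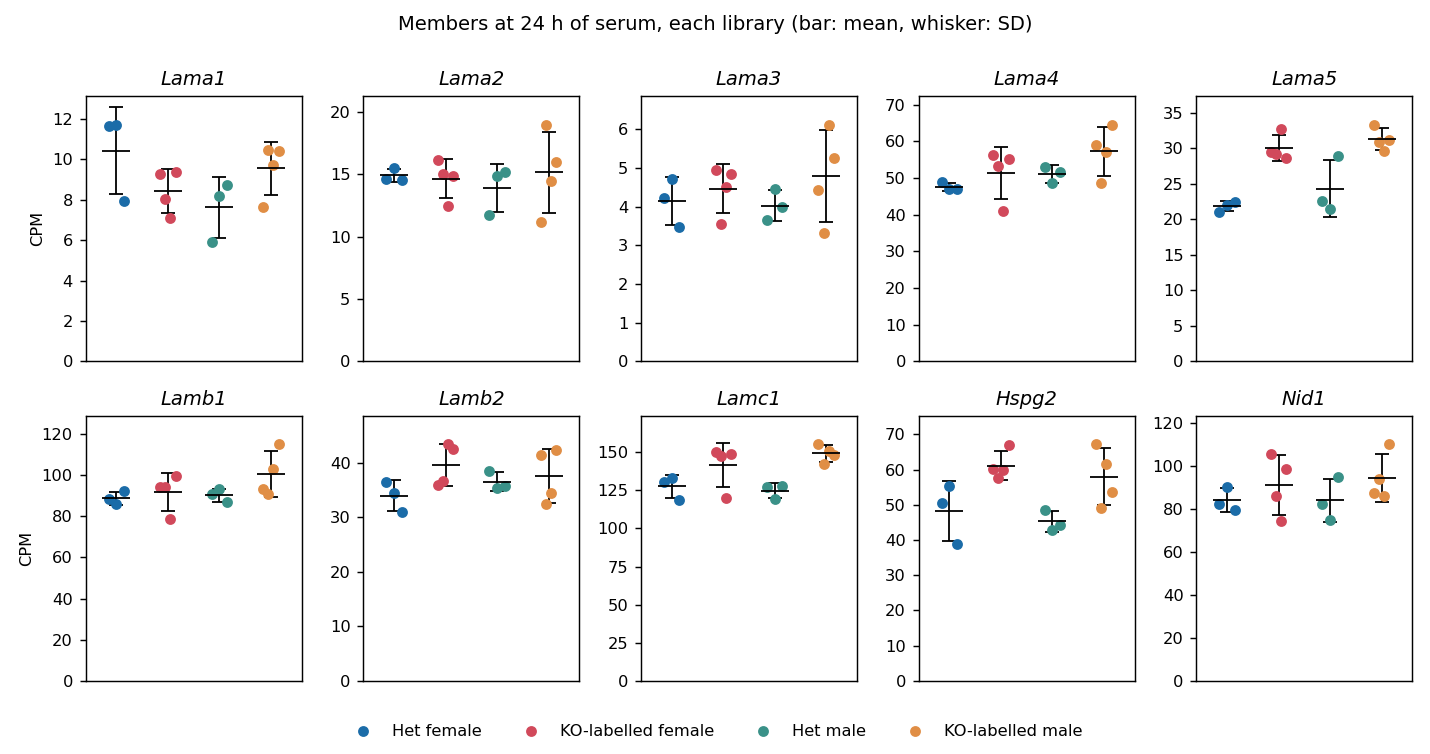
CPM of each member at 24 h (vertical axes from 0) in the Het and KO-labelled groups by sex, with points for single libraries, a bar at the group mean and a whisker of 1 SD. For Lama5 and Hspg2 each KO-labelled group lies above the Het group of its sex, and for Lama1 the KO-labelled group is on the lower side in females and on the higher side in males.

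No gene of the 24 h table passed the edgeR threshold between genotypes, so the background is 0% of 16013 genes, against 6.62% at an unadjusted p under 0.05 and 5 genes called by DESeq2. On the TMM-scaled values, all KO-labelled libraries lay above all Het libraries for 2 of 10 members in females and 3 in males, as did 2.3% and 3.4% of all genes. With the sexes pooled this held for 0 members, against 0.0125% of all genes. The median log2 fold change of the members was 0.14, with 10 of 10 above 0, against 0.00 and 50% over all genes. Nothing is read from these counts, since the contrast chose the members. The median was 0.17 without the libraries with choroid plexus reads, 0.15 without KO-labelled female 2, and lay between 0.11 and 0.19 with single libraries left out. Lama1 changed sign among those fits, from -0.08 to 0.05, and Lama2 did, from -0.02 to 0.10. The 4 h and 24 h comparisons share no library, and they differ in control genotype. Fold changes were on opposite sides of 0 for most members, as for Lama5 at -0.24 and 0.41 and Nid1 at -0.35 and 0.14. The difference between the times was not tested.

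**Figure D4:**
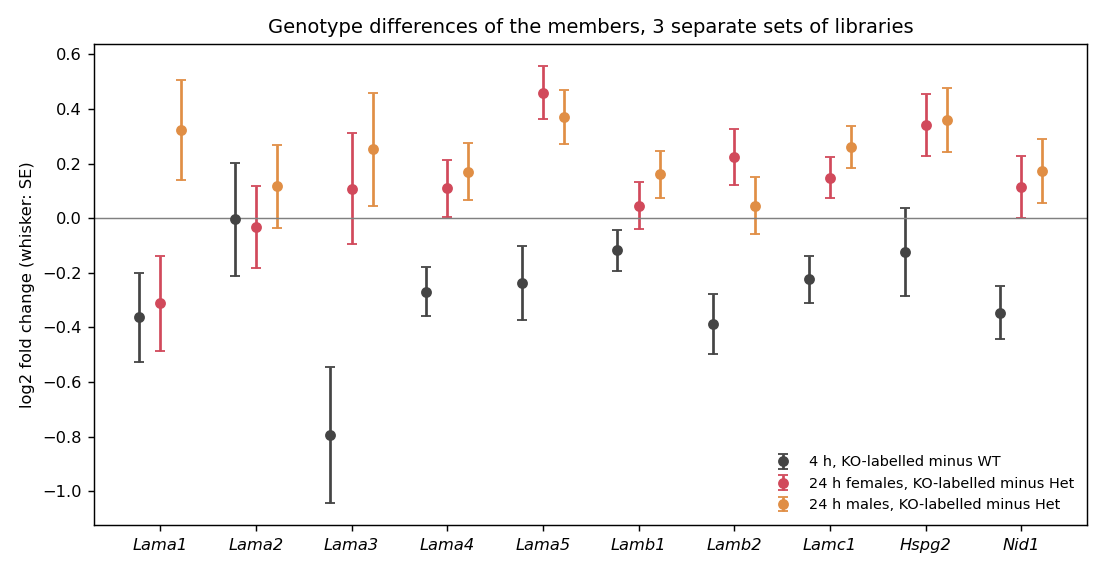
Log2 fold change of each member (vertical axis) with a whisker of 1 SE, for KO-labelled against WT slices at 4 h and for KO-labelled against Het slices at 24 h in females and in males. The 4 h points lie at or below 0 and the 24 h points mostly above it, with Lama1 in females at -0.31 the lowest of the 24 h points.

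Endothelial and meningeal markers leaned to different sides of 0 in the sexes at 24 h, whereas mural markers did not. Of the 14 endothelial markers, 9 had a fold change above 0 in females (median log2 0.04) and 12 had one below 0 in males (median -0.17), with a median of -0.05 averaged over the sexes. The 7 tested mural markers had an averaged median of -0.03, with 4 below 0 in females (median -0.04) and 4 in males (median -0.01). Of the 9 astrocyte markers, 8 were below 0, with a median of -0.12. Endothelial sums were 329.8 to 347 CPM in Het and 279.5 to 379 in KO-labelled females, and 335 to 419 and 314 to 384 in males. Meningeal fibroblast markers were below 0 for 9 of 11 in females (median -0.11) and above 0 for 9 of 11 in males (median 0.22), and they averaged 0.06. Their sums were 533 to 625 CPM in Het and 272 to 689 in KO-labelled females, the low value being that of KO-labelled female 3. In males they were 468 to 549 in Het and 568 to 732 in KO-labelled libraries, without overlap. Choroid plexus markers summed to 1554, 2825 and 502 CPM in KO-labelled female 1, female 3 and male 3 and to 19.4 to 29.1 CPM in all other libraries. Lama5 and Hspg2 were 0.40 and 0.35 on the log2 scale without those 3 libraries. None of these differences between the sexes was tested, nor was the part of the markers in the members' differences.

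**Figure D5:**
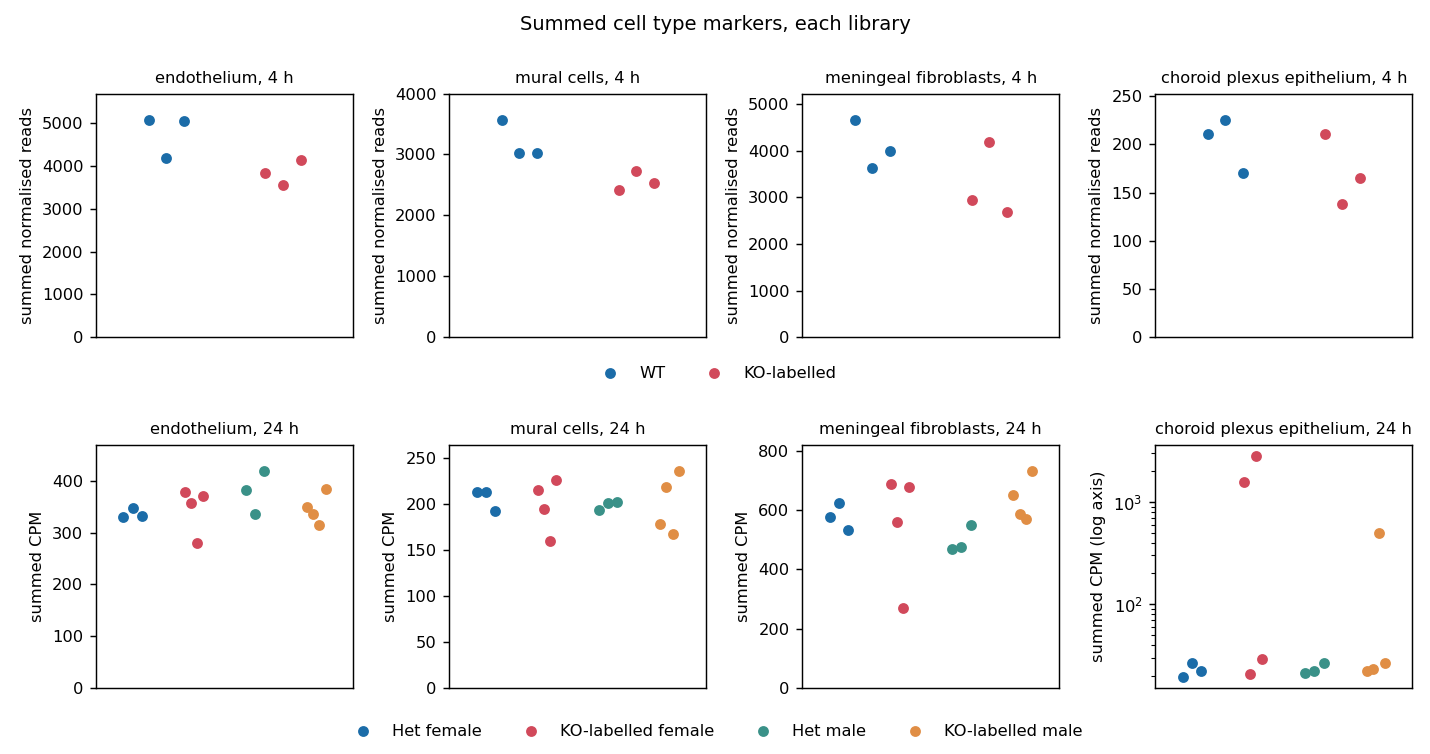
Summed level of the markers of endothelium, mural cells, meningeal fibroblasts and choroid plexus epithelium in each library (points), in normalised reads at 4 h and in CPM at 24 h, with a log axis for choroid plexus at 24 h. At 4 h the endothelial and mural sums of the KO-labelled libraries lie below those of WT, and at 24 h 3 KO-labelled libraries stand far above the rest in choroid plexus markers.

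Among the 61 partners at 24 h, 0 passed the edgeR threshold between genotypes, with a smallest adjusted p of 0.738. Fold changes were above 0 for 35, with a median of 0.03. At an unadjusted edgeR p under 0.05, 4 were higher and 0 lower. Of all 16013 genes, 612 were higher and 448 lower by that measure, or 6.62% in either direction. Receptors lay mostly above 0, 9 of 12 with a median of 0.12. Itgb4, the integrin beta subunit of hemidesmosomes, was at 9.25 ± 0.680 CPM in Het and 12.9 ± 1.49 in KO-labelled females, and at 10.6 ± 0.891 and 11.8 ± 1.72 in males (SD, n = 3 and 4 in each sex). Its log2 fold change was 0.32 ± 0.10 (edgeR adjusted p = 0.738). Itga7 and Itga3, alpha subunits of laminin-binding integrins, had log2 fold changes of 0.22 and 0.16 (edgeR adjusted p = 0.738 and 0.758). Other structural components lay above 0 in 16 of 20 cases, with a median of 0.08. The collagen IV chains Col4a3 and Col4a2 had log2 fold changes of 0.65 ± 0.23 and 0.12 ± 0.06 (edgeR adjusted p = 0.738 and 0.753), and Smoc2 had one of 0.28 (edgeR adjusted p = 0.814). Col4a3 rested on few reads, with means of 0.975 CPM in Het and 1.74 in KO-labelled females, and of 1.18 and 1.67 in males.

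In the dystroglycan group, 12 of 15 genes had a 24 h fold change below 0, with a median of -0.03. Dtna and Pomt1 had log2 fold changes of -0.07 and -0.07 (edgeR adjusted p = 0.875 and 0.884), and Dtna was at -0.01 without Het male 1. Of the heparan sulfate genes 6 of 11 lay above 0, with a median of 0.02. Sulf1, Ext1 and Ndst2 had log2 fold changes of 0.16, 0.07 and -0.08 (edgeR adjusted p = 0.849, 0.850 and 0.863). Without Het male 3, Sulf1 was at 0.04, and it was also at 0.04 without the libraries with choroid plexus reads. For Lamb3 and Lamc3 the log2 fold changes were -0.15 and -0.02 (edgeR adjusted p = 0.928 and 0.991), and without the libraries with choroid plexus reads Lamb3 was at -0.02.

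Sex was tested over the same 14 libraries, averaged over genotypes, which is a contrast the choice of members did not use. None of the 10 members passed the edgeR threshold between males and females, against 0.0187% of all genes tested, and 0 had an unadjusted p under 0.05 with edgeR or DESeq2, against 4.42% of all genes with edgeR. Every member had an edgeR adjusted p of 0.998. The sizes were small, from -0.13 ± 0.13 for Lama1 to 0.13 ± 0.07 for Lama4 on the log2 scale, males minus females. Lama5 stood at 0.10 ± 0.07, Lamb1 at 0.08 ± 0.06 and Hspg2 at -0.09 ± 0.08. Lama2, Lama3, Lamb2, Lamc1 and Nid1 lay between -0.02 and 0.04, and each changed sign under some of the 20 other settings. Of the 61 partners, 0 passed and 3 had an unadjusted p under 0.05, and without the low-count filter Col18a1, the source of endostatin, passed with a log2 fold change of 0.21 (edgeR adjusted p = 0.0484). Without KO-labelled female 2, whose sex-linked reads go against its label, 9 genes passed in the whole table and 0 of them were members.

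How the members varied together was described over the 14 libraries at 24 h, which share preparation, depth differences and the genotype groups, so no p is given. Of the 45 pairs of members, 39 had a Pearson correlation of log2 CPM above 0, with a median of 0.35 (0.46 over the 11 libraries without choroid plexus reads). Over all 14, Lama4 and Lamb1 were the most alike at 0.86, followed by Lama4 and Lamc1 at 0.78 and Lamc1 and Hspg2 at 0.74. Over the 11 the order differed, with Lamc1 and Hspg2 at 0.89, Lama4 and Lamb2 at 0.87, which were at 0.28 over all 14, and Lama5 and Lamc1 at 0.82 ahead of Lama4 and Lamb1 at 0.79. Lama1 and Lama2 reached 0.71, and Lama2 and Lamb2 were the most opposed at -0.51. Lama5 correlated with Hspg2 at 0.60. Both gave the list its place by standing higher in KO-labelled libraries, and group means were not removed, so that choice itself favours a value above 0. With the summed meningeal markers, Nid1 correlated at 0.77, Lama4 at 0.75, Lamc1 at 0.69 and Lamb1 at 0.68, whereas Hspg2 stood at 0.18 and Lama5 at 0.03. Over the 11 libraries without choroid plexus reads those last 2 values were 0.68 and 0.60. With the endothelial sum, Nid1 correlated at 0.66 and Lama4 at 0.60, but Lama5 at -0.01 and Hspg2 at -0.12. Over the 11 libraries these were 0.55, 0.51, 0.39 and 0.10. With the mural sum, Nid1 correlated at 0.69, Lama2 at 0.64 and Lama1 at 0.56, but Hspg2 at -0.16 and Lama5 at -0.21. Over the 11 libraries these were 0.68, 0.70, 0.70, 0.11 and 0.08.

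The genes whose levels were most like a member's were taken from 13984 genes over the same 14 libraries, by Pearson correlation of log2 CPM. Group means were left in here too. For Lama5 they were Dazl (0.86), Slc12a4 (0.86), Arid3a (0.84), Zfp36 (0.82) and Per1 (0.81). For Hspg2 they were Cspg4 (0.84), Rab20 (0.79), Pappa (0.79), Lrp1 (0.78) and Mast4 (0.76). Cspg4 encodes the NG2 proteoglycan of pericytes and oligodendrocyte precursors, and Lrp1 a large endocytic receptor. For Nid1 they were Phldb2 (0.88), Aebp1 (0.87), Igf2 (0.87), Akap12 (0.85) and Col5a2 (0.84), among which Col5a2 encodes a fibrillar collagen chain. In all 3 cases the 5 genes kept correlations of at least 0.71 over the 11 libraries without choroid plexus reads. No gene is shared by the 3 sets of 5.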

How the data were processed

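RNA-seq of 20 libraries was used. Per the submitters' processing notes, GRCm38 (mm10), TopHat2, HTSeq and DESeq2 1.38.3 were involved, in roles not given. At 24 h the authors deposited raw read counts per gene. At 4 h the authors deposited a signal instead, reads over a size factor per library, from which whole reads were recovered (100% of values within 0.05 of a whole number). For these scaled values the test was limma 3.58.1 (intensity trend) on log2(value + 1) for genes with a mean of at least 10, which understates changes of low genes. The 24 h counts were tested with edgeR 4.0.16 (quasi-likelihood, TMM, default expression filter, a mean per genotype and sex) under R 4.3.3. Tests were two-sided, with Benjamini-Hochberg adjustment over all genes and a threshold of 0.05. DESeq2 1.42.0, other pseudocounts, filters and scalings, a replicate block and left-out libraries were the alternatives. Symbols matched 19673 and 51633 identifiers. Exon lengths, with all annotated exons of a gene merged, and coordinates come from GENCODE GRCm38.

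The members and lists were chosen with earlier results of these data known. All members are named, and of each partner group the genes past the threshold or else the 3 with the smallest p, of which some are not reported here. Likeness lists are the 5 highest correlations among genes with a mean log2 CPM of at least 1. No 2 libraries of a group agreed within sampling noise (chi-square per degree of freedom 3.17 to 12.7). At 4 h, same-numbered WT and KO-labelled libraries deviated together from their group means (correlations 0.26, 0.14 and 0.18). The labels say nothing of a pairing, and the main 4 h fit used none, so its p-values are unpaired. The replicate block was an alternative only. Number 1 was also the library with Xist reads in both groups, and the part of sex in these correlations was not tested.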

Additional observations from a re-analysis of the deposited data

Results flagged for a closer look

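In KO-labelled females at 24 h, Lamc1 in library 3, at 119.8 CPM, was further from the other 3 libraries than Dixon's 95% limit allows. Of 20 groups examined, chance flags about 1 in 20. That library also held 2706 CPM of Ttr and the lowest meningeal marker sum, 272 CPM, and their part in the Lamc1 value was not tested.

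For Lama1 the KO-labelled minus Het difference at 24 h was -0.31 in females and 0.32 in males on the log2 scale. Every KO-labelled female lay below the mean of the Het females and every KO-labelled male above that of the Het males, though for KO-labelled male 1 only by 7.65 against 7.62 CPM. The females include KO-labelled female 2, whose sex-linked reads go against its label, and without it the female difference was -0.29, an alternative chosen after seeing the data. The difference between the sexes was not tested.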

How the results depend on the processing

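Calls among members and partners changed under few settings. At 4 h the members called numbered 0 to 1 and the partners called 0 to 1 with single libraries left out, the 1 of each arising without KO-labelled 2. DESeq2 called 2 partners at 4 h, and the sex contrast called 1 partner without the low-count filter. All other settings called 0 of either list. Over all genes, the 4 h count of 7 became 161 with DESeq2, 28 with limma's robust spread, 38 with the block, 211 without KO-labelled 2 and 1 without the libraries with Xist reads. The 24 h genotype count of 0 became 263 without the low-count filter, 5 with DESeq2 and 1 with the block, and the sex count of 3 became 215 without the filter. Lama2 at 4 h was 0.042 with edgeR, 0.044 with DESeq2 and 0.091 without the libraries with Xist reads, and it lay between -0.28 and 0.18 with single libraries left out. Hspg2 at 4 h lay between -0.29 and 0.044 in that way, and Lamc3 at 24 h between -0.075 and 0.052, and at 0.085 without the libraries with choroid plexus reads. The causes were not tested.

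Libraries at 24 h with the same number in their titles, 1 to 3, had correlations of residuals between -0.18 and 0.09. The description fields number some of these libraries otherwise, and a pairing by those numbers was not tested. With the replicate block, the median member fold change at 24 h was 0.09, with Lama5 at 0.43 and Lama1 at -0.04. The block at 4 h changed no call among members or partners. Depth limits Lama3 most, as the member with the fewest reads.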
